A study of Saccharomyces cerevisiae with 4 samples.

Results

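The genes described here encode proteins with a predicted signal sequence, the N-terminal segment that sends a growing protein to the endoplasmic reticulum (ER), and they are 231 of the 6692 genes in the deposited table. A signal sequence was predicted for 384 genes. Of these, 30 carried a mitochondrial annotation by either of the authors' 2 sources, and 3 more were set aside by name. That left 351 genes, and the 231 with at least 100 reads over the pulldown and the input with cycloheximide were kept. The other 120 had fewer reads, and 33 of them had 0 in both libraries. The authors' annotation lists 92 of the 231 as glycosylated and 139 as not. Of the 95 glycosylated genes that met the annotation rule, 3 fell under the read minimum. Just outside the minimum were GAS4 with 99 reads and YML089C with 94, and just inside were YPR157W with 108 and FRE4 with 110.

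As background, a signal sequence is bound by the signal recognition particle as it leaves the ribosome, or is held open by chaperones until the protein is finished, and in either case it is threaded through the Sec61 channel into the ER. There it is removed by signal peptidase, and the protein is folded, given disulfide bonds and sugars, and often fastened to a glycosylphosphatidylinositol (GPI) anchor. From the ER the products go through the Golgi to the vacuole, the plasma membrane, the cell wall or the medium. Messages for mitochondrial proteins follow another route, and the ER and mitochondria of yeast touch at contact sites.

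All libraries came from 1 yeast genotype, Saccharomyces cerevisiae S288C with OM45-mVenus-BirA at the om45 locus, in which the biotin ligase BirA hangs on Om45, a protein of the mitochondrial outer membrane. Both copies of the ribosomal protein Rpl16 (RPL16A and RPL16B) carried HA-TEV-AVI tags, whose AVI peptide BirA biotinylates, and the strain was also labelled leu2::pPGK1-BirA::LEU2, ura3Δ0, met15Δ0 and his3Δ1. Ribosomes near Om45 were marked with 10 nM biotin for 2 min in SD medium that otherwise held 0.125 ng/ml biotin. The groups were the pulldown with cycloheximide, the streptavidin-bound monosomes of cells given 100 µg/ml of this elongation inhibitor for 2 min before biotin; the input with cycloheximide, the monosomes before binding; and the pulldown and the input without cycloheximide. Each group held 1 library, so no difference below has a replicate check and no p-value is given.

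The libraries held 37467060 reads in the pulldown with cycloheximide, 22528297 in its input, 15705022 in the pulldown without the drug and 18172572 in its input. The median secretory gene had 1960 reads in the pulldown and 1924 in the input with cycloheximide, and 948 reads in the pulldown and 1032 in the input without it. RPM below are reads scaled so that each library's nuclear-gene total is 1000000. Log2 enrichment is the log2 ratio of pulldown to input relative to the median of all nuclear genes measured, and genes count as higher or lower from 2-fold on. On library totals alone the median gene stood at -0.73 with cycloheximide and at -0.03 without, and this shift is taken out of every value unless stated. Intervals are 95% intervals and cover counting error only, since without molecular identifiers a read need not stand for its own molecule. Their half-width had a median over the secretory genes of 0.09 log2 units in the pair with cycloheximide and 0.11 in the other. OM45 stood at 4.27 with the drug and 2.26 without, whereas LEU2 held at most 2 reads in a library, although a LEU2 insertion is labelled. Whether reads of the inserted marker would be counted under LEU2 is not known, so this does not settle whether it was present. HIS3, labelled his3Δ1, held 6175 reads in the pulldown and 6790 in the input with cycloheximide, and 901 in the pulldown and 1211 in the input without. The presence of the second, PGK1-driven BirA could not be settled from the counts, and its part in these values was not tested.

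The label of a secretory set was checked against localizations of GFP fusions in the authors' annotation. Of the 231 genes 73 had one, and 29 of those were placed in the ER and 28 in the vacuole or its membrane. The cytoplasm, nucleus or spindle was given for 6 genes. Among these were RPP2B, a protein of the ribosomal stalk, CBF2, a kinetochore subunit, and MAK11, a nucleolar protein, which are not secretory proteins by their known roles. YPS3, an aspartyl protease of the cell surface, was the 1 member placed in the mitochondrion. The list therefore holds at least a small number of genes for which the prediction goes against other annotation. The 158 members without a GFP localization could not be checked in this way and may hold more. Conversely, KAR2, the main ER chaperone of the Hsp70 family, had no predicted signal sequence in the table, and GAS1, PEP4 and SUC2, well known secretory proteins, carried a mitochondrial annotation and so stayed outside.

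Secretory genes took 4.79% of nuclear-gene reads in the pulldown with cycloheximide, against 7.59% in its input. Without the drug they took 6.39% of the pulldown, against 5.70% of the input. The share was thus lower in the pulldown than in the input with the drug and higher without it. These shares carry no correction for the median gene, which itself stood at -0.73 on library totals with the drug and -0.03 without. The lower share with the drug is therefore no sign of a loss particular to secretory genes, whose median relative to the median gene was 0.03. The most strongly read member in every library was CCW12, which encodes an abundant GPI-anchored mannoprotein of the cell wall. Per length it reached 19342 RPKM (the authors' deposited level, scaled by gene length and library size) in the pulldown and 30834 in the input with cycloheximide, and 30819 RPKM in the pulldown and 26190 in the input without it. YDR524C-B, a short gene, was next, at 17666 RPKM in the pulldown and 23061 in the input with the drug, and 19881 RPKM in the pulldown and 16217 in the input without. CWP2, another small wall mannoprotein, stood at 10893 RPKM in the pulldown and 17058 in the input with the drug, and 15987 RPKM in the pulldown and 13702 in the input without. HSP150, a wall protein of the PIR family, held 2425 RPKM in the pulldown and 3261 in the input with the drug. The median secretory gene had 57.4 RPKM in the input with cycloheximide.

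With cycloheximide, secretory genes as a group lay close to the median gene. Their median log2 enrichment was 0.03, with 10% of them below -0.27 and 10% above 0.54, and 128 of 231 lay above the median gene. On library totals the same median was -0.70, with 6 members at least 2-fold higher and 21 lower, so the split depends on the scaling. Relative to the median gene, of the 231 genes, 12 were at least 2-fold higher in the pulldown (5.19%), against 12.5% of all nuclear genes measured, and 0 were at least 2-fold lower, against 0.201%. Among the 12, PAU5, FIT1 and DAN4 met the read minimum only through the pulldown in which they were high. With at least 100 input reads, 9 of 215 members were higher. The genes that are neither members nor annotated as mitochondrial had a median of -0.04 with 4.38% at least 2-fold higher, and mitochondrial genes a median of 0.55 with 44.5%. So the share of secretory genes past 2-fold was near that of other non-mitochondrial genes and far from that of mitochondrial genes.

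**Figure D1:**
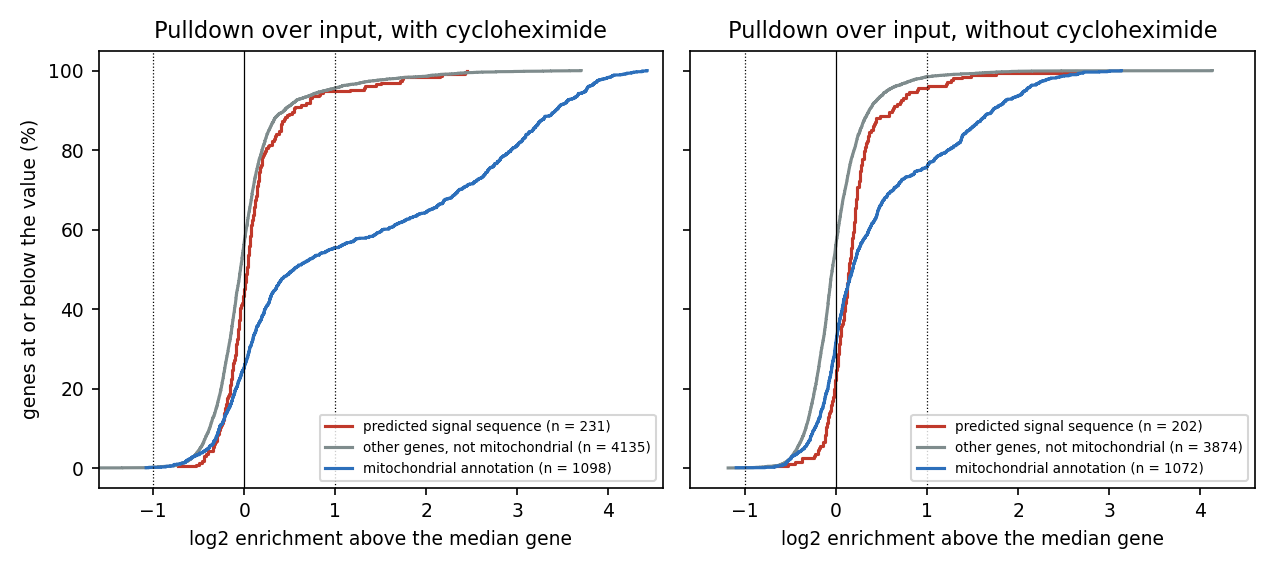
Cumulative share of genes (y axis, percent) at or below a log2 enrichment relative to the median gene (x axis), with cycloheximide on the left and without it on the right, for secretory genes, other genes without mitochondrial annotation and genes with it. The secretory curve runs close to that of the other genes with the drug (median 0.03 against -0.04) and lies to its right without the drug (0.14 against -0.04), while the mitochondrial curve alone has a long right shoulder.

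Without cycloheximide the group stood slightly further from the median gene. The median of the 202 members with at least 100 reads in that pair of libraries was 0.14, with 10% below -0.11 and 10% above 0.61. Above the median gene were 154 of the 202 (76.2%), against 43.5% of other genes without mitochondrial annotation, whose median was -0.04. At least 2-fold higher were 9 members (4.46%), against 6.39% of all genes measured, and 0 were at least 2-fold lower, against 0.0777%. Among the 9, PAU17 met the read minimum only through the pulldown in which it was high. With at least 100 input reads, 8 of 196 members were higher. Of the other genes without mitochondrial annotation 1.55% were at least 2-fold higher, and of mitochondrial genes 24.3%. Without a second library the size of this offset against the spread between cultures is unknown.

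Of the 34 cell wall mannoproteins among the members, 8 were at least 2-fold higher with cycloheximide (23.5%), and these made up most of the 12. The share was 12.5% over all genes and 4.38% over other genes without mitochondrial annotation. Of the 8, FIT1 and DAN4 met the read minimum only through the pulldown in which they were high. The list's share with at least 100 input reads was not computed. The list median was 0.23 relative to the median gene and -0.49 on library totals, so its direction depends on the scaling, and values ran from SAG1 at -0.53 to TIR4 at 2.44. The Tir and Dan mannoproteins, a family of serine-rich wall proteins known from anaerobic and cold-grown yeast, led the list. TIR4 (YOR009W, chromosome XV, 344335 to 345798 in sacCer3) had 40.3 RPM in the pulldown and 12.3 in the input with cycloheximide, and 17.9 in the pulldown and 6.55 in the input without it. Both pulldowns exceeded their inputs, by a log2 enrichment of 2.44 (2.26 to 2.63) with the drug and 1.48 (1.17 to 1.80) without. DAN1 (YJR150C, chromosome X, 708811 to 709707) had 38.9 RPM in the pulldown and 11.99 in the input with the drug, and 26.7 in the pulldown and 11.3 in the input without. On library totals the inputs were alike and the pulldowns differed, but relative to the median gene the input was lower with the drug, at -0.66. The enrichment of DAN1 was 2.42 (2.24 to 2.62) with cycloheximide and 1.27 (1.02 to 1.51) without.

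TIR1 and TIR2, relatives of TIR4, were not alike across the conditions. TIR1 (YER011W, chromosome V, 175248 to 176012) held 94.2 RPM in the pulldown and 62.1 in the input with the drug, and 138 in the pulldown and 60.5 in the input without. Its enrichment was 1.33 with cycloheximide and 1.22 without, a difference of 0.06 (-0.08 to 0.20) once centred on the median difference of all genes, and its counting interval includes 0. TIR2 (YOR010C, chromosome XV, 346195 to 346950) held 26.4 RPM in the pulldown and 13.1 in the input with the drug, and 12.4 in the pulldown and 7.92 in the input without, which gave 1.73 with and 0.67 without. TIR3 stood at 0.75 with the drug and 0.73 without, under 2-fold in both. DAN4 rested on few reads, 127 in the pulldown and 46 in the input with cycloheximide, with an enrichment of 1.45 (0.96 to 1.98). Without the drug it had 25 reads in the pulldown and 1 in the input and was not measured.

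The Fit mannoproteins, which hold iron-bearing siderophores in the wall, were the other family among the 8. FIT3 (YOR383C, chromosome XV, 1060441 to 1061055) had 175 RPM in the pulldown and 64.5 in the input with cycloheximide, and 329 in the pulldown and 99.4 in the input without. FIT2 (YOR382W, chromosome XV, 1059531 to 1059992) had 166 in the pulldown and 97.3 in the input with the drug, and 290 in the pulldown and 114 in the input without. Both genes were more strongly read without the drug, in pulldown and input. The enrichment of FIT3 was 2.17 (2.09 to 2.25) with cycloheximide and 1.76 (1.68 to 1.84) without, and that of FIT2 was 1.497 (1.43 to 1.57) with and 1.38 (1.31 to 1.46) without. FIT1 had only 90 reads in the pulldown and 27 in the input with the drug, at 1.71 (1.10 to 2.41), and was not measured without. Of the 12 genes counted with cycloheximide, 3 pairs lie next to each other, DAN1 and DAN4, TIR4 and TIR2, and FIT2 and FIT3. The sources used here do not say how reads common to related copies were divided, which touches the Tir, Dan, Fit and Pau families.

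**Figure D2:**
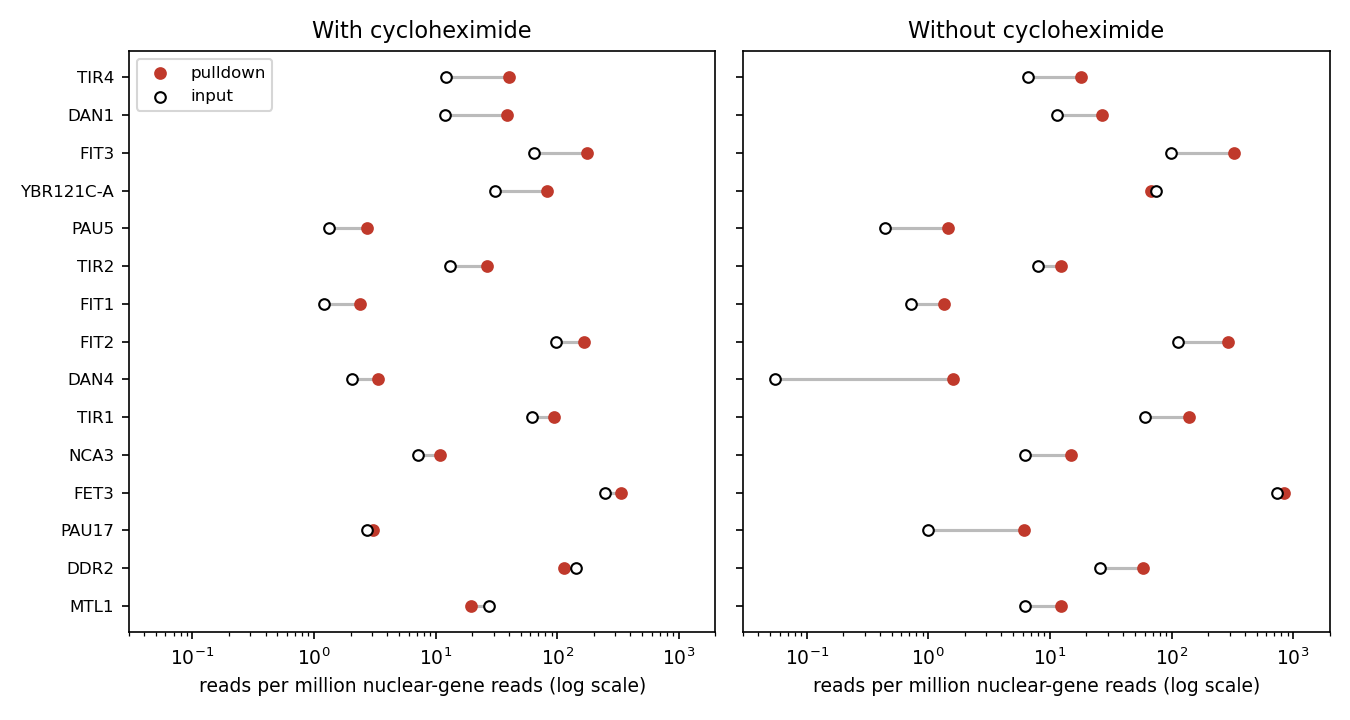
Footprint level in RPM of the nuclear-gene total (x axis, log scale) in the pulldown (filled) and the input (open) for the 15 secretory genes counted as higher in either pulldown, with cycloheximide on the left and without it on the right, 1 library per point. The points carry no correction for the median gene. With the drug the DDR2 and MTL1 pulldowns lie below their inputs, while without it the YBR121C-A pulldown (67.3) alone lies below its input (74.0).

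The abundant mannoproteins were near the median gene. CCW12 stood at -0.07 with cycloheximide and 0.26 without, CWP2 at -0.04 and 0.25, and HSP150 at 0.18 and 0.21. The 3 lowest on the list with the drug were proteins of mating: SAG1, the alpha-agglutinin, at -0.53 (-0.76 to -0.31), AGA2, a subunit of a-agglutinin, at -0.45, and FIG2 at -0.44. AGA1, the anchor subunit of a-agglutinin, stood at -0.31. Without the drug the list median was 0.28 over 30 measured genes, from SAG1 at -0.05 to FIT3. Above the median gene lay 27 of them, and 5 passed 2-fold (16.7%), against 6.39% of all genes measured.

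The seripauperins, a family of small proteins coded mostly near chromosome ends, had only 2 members, both thinly read. PAU17 had 114 reads in the pulldown and 62 in the input with cycloheximide, and 97 in the pulldown and 18 in the input without. Its pulldown without the drug stood far above the input. The enrichment was 0.87 (0.41 to 1.34) with cycloheximide and 2.64 (1.94 to 3.49) without, the highest of the members measured without it. With 18 input reads, PAU17 met the minimum of that pair only through the pulldown in which it was high. It was left out when at least 100 input reads were asked for. PAU5 had 102 reads in the pulldown and 30 in the input with cycloheximide, at 1.74 (1.16 to 2.40), and was not measured without.

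Enzymes that build and remodel glucan and chitin, 26 genes, centred on 0.03 with cycloheximide and on 0.16 over 23 genes without. In both conditions 1 of them was at least 2-fold higher (3.85% and 4.35%), against 12.5% and 6.39% of all genes measured. This was NCA3, a wall protein of the SUN family. It had 405 reads in the pulldown and 162 in the input with the drug, at 1.31 (1.05 to 1.59), and 234 in the pulldown and 113 in the input without, at 1.29 (0.96 to 1.63). The rest ran from CDA1, a chitin deacetylase of spores, at -0.40 to CRR1, also of the spore wall, at 0.35. Widely used enzymes of vegetative cells, such as the glucanase BGL2 at 0.24 and SCW4 at 0.18, lay in between.

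The 8 genes on the list of cell wall sensors and related proteins centred on 0.03 with cycloheximide, from the signalling mucin HKR1 at -0.23 to the mucin MSB2 at 0.45. Without it all 8 lay above the median gene, with a median of 0.32, from AXL2 at 0.19 to MTL1 at 1.01. MTL1, a relative of the sensor MID2, had 19.5 RPM in the pulldown and 27.6 in the input with the drug, and 12.4 in the pulldown and 6.27 in the input without. Its input was thus the more variable side, and its enrichment was 0.22 (0.07 to 0.38) with cycloheximide and 1.01 (0.68 to 1.36) without.

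Genes of the ER itself showed little spread. The 19 ER chaperones and disulfide enzymes had a median of 0.06 with cycloheximide and 0.05 without, and 0 of them were 2-fold higher or lower. Over all genes measured 12.5% were higher with the drug and 6.39% without, and over other genes without mitochondrial annotation 4.38% and 1.55%. For so few genes a count of 0 lies near the latter shares. They ran from ERJ5, a DnaJ-like co-chaperone, at -0.11 to CPR4, a peptidyl-prolyl isomerase, at 0.44 with the drug. PDI1, the protein disulfide isomerase, had 946 RPM in the pulldown and 1180 in the input with the drug, and 1849 in the pulldown and 1844 in the input without. Its level was lower with cycloheximide in both kinds of library, and its enrichment was 0.41 with and 0.04 without. The 14 genes of glycosylation, GPI anchoring and ER degradation had a median of -0.01 with the drug and 0.09 without, from OST1, a subunit of oligosaccharyltransferase, at -0.19 to GPI16, of the GPI transamidase, at 0.20. The mannosyltransferases ALG9 at -0.43 and ALG12 at -0.50, which build the sugar donor of N-glycosylation and stood on no list, were among the 10 lowest members with cycloheximide.

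The cargo and vacuolar lists were as narrow as the ER lists. The 8 p24 proteins and cargo receptors, which sort cargo between ER and Golgi, had a median of 0.02 with the drug and 0.04 without, from ERP4 at -0.29 to ERV25 at 0.15 with it. EMP24, a founding p24 protein, stood at -0.02 with and 0.21 without. The 6 vacuolar hydrolases and related proteins had a median of -0.05 with and 0.07 without, and PRC1, carboxypeptidase Y, stood at 0.09 with and 0.21 without. None of these 14 genes was 2-fold higher or lower in either condition. Of all genes measured 12.5% were higher with the drug and 6.39% without, but of other genes without mitochondrial annotation only 4.38% and 1.55%. For 14 genes this count lies near the latter shares.

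The 12 members on the list of secreted enzymes, pheromone and proteases, none of them a pheromone gene, were wider. Their median was 0.09 with cycloheximide, from BAR1, the secreted protease that cleaves alpha-factor, at -0.47 to the yapsin YPS3 at 0.42. Without the drug it was 0.02, from PHO5 at -0.67 to YPS3 at 0.89. PHO5, the repressible acid phosphatase and the lowest of the 202 members without the drug, had 152 reads in the pulldown and 139 in the input with it, and 45 in the pulldown and 85 in the input without. At this depth its interval was -0.22 to 0.46 with cycloheximide and -1.23 to -0.14 without. PHO3, the adjacent constitutive phosphatase, is a close relative of PHO5, and how reads common to both were divided is not given.

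**Figure D3:**
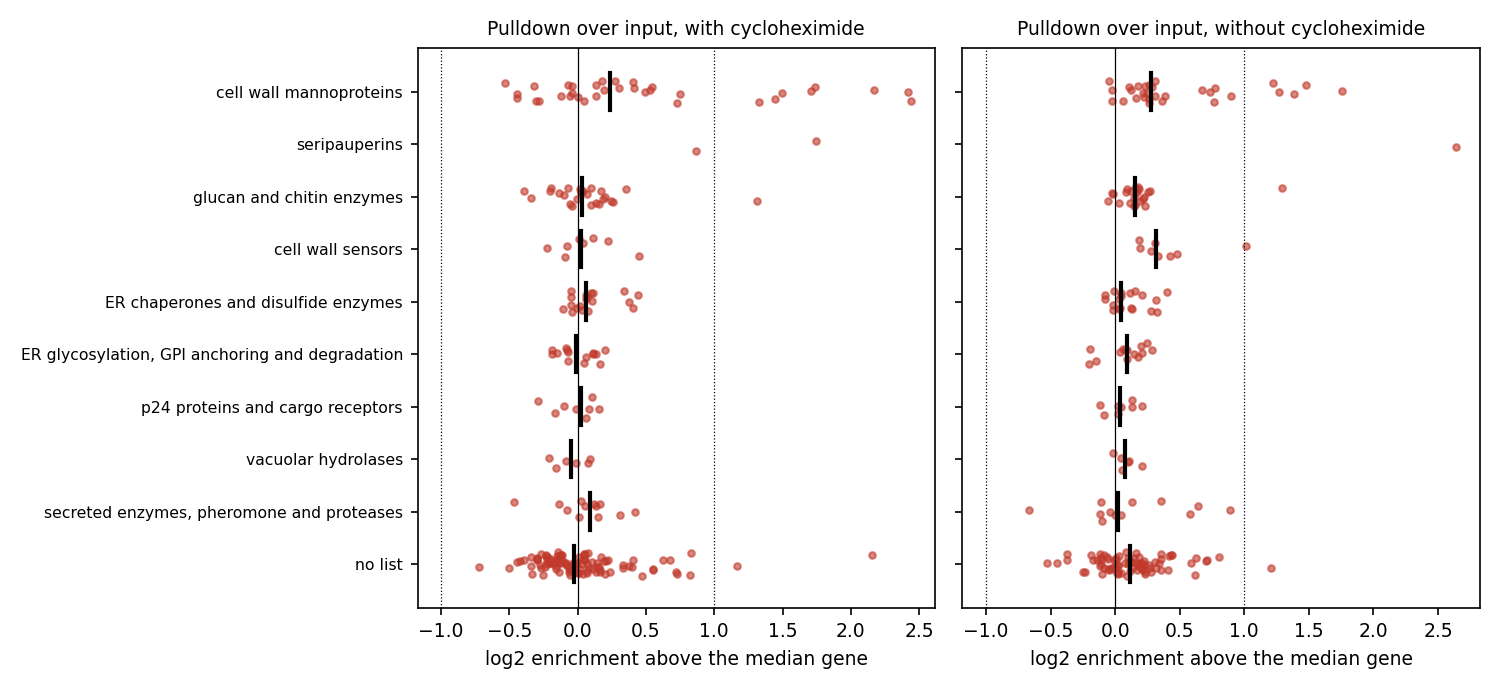
Log2 enrichment relative to the median gene (x axis) of every secretory gene by list (y axis), with cycloheximide on the left and without it on the right; each point is 1 gene, the bars are list medians (drawn for 3 or more genes) and the dotted lines mark 2-fold. Points beyond 2-fold are mostly mannoproteins, 8 of the 34 with the drug and 5 of the 30 without. Among the 8, FIT1 and DAN4 met the read minimum only through the pulldown in which they were high. The ER, cargo and vacuolar lists stay inside the lines.

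Of the 102 members on no list, 2 were at least 2-fold higher with cycloheximide and 1 without, with medians of -0.03 and 0.11. These were 1.96% and 1.23% of those measured, against 12.5% and 6.39% of all genes. FET3 (YMR058W, chromosome XIII, 388822 to 390732), the multicopper ferroxidase of high-affinity iron uptake, had 332 RPM in the pulldown and 245 in the input with the drug, and 847 in the pulldown and 740 in the input without. It was much more strongly read without the drug, and its enrichment was 1.17 (1.12 to 1.21) with cycloheximide and 0.23 (0.19 to 0.26) without. YBR121C-A, a frame of 52 codons with no coordinates in the reference table used, had 82.2 RPM in the pulldown and 30.6 in the input with the drug, and 67.3 in the pulldown and 74.0 in the input without. Only the input with cycloheximide was low, and the enrichment was 2.15 (2.03 to 2.27) with and -0.10 (-0.22 to 0.01) without. Its overlap with other genes was not checked, and GRS1 (YBR121C), the glycyl-tRNA synthetase gene whose systematic name it extends, moved the same way, at 1.67 with and 0.26 without. Whether reads of GRS1 were counted in it was not tested. DDR2, a small stress-induced protein, had 113 RPM in the pulldown and 142 in the input with the drug, and 58.1 in the pulldown and 25.7 in the input without, for an enrichment of 0.40 with and 1.21 without. The lowest member with cycloheximide was YML084W at -0.73 (-1.04 to -0.42).

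Over the 202 genes measured in both conditions, the members past 2-fold on the higher side numbered 9 with cycloheximide and 9 without. The sets shared 6 genes, so 6 of 9 in each: TIR1, NCA3, DAN1, TIR4, FIT2 and FIT3. Over all nuclear genes measured in both, 303 were shared, which is 45.4% of the 668 higher with the drug and 92.4% of the 328 higher without. The authors' deposited table, which applied its own threshold, calls 2 of 215 members enriched with cycloheximide, DAN1 and TIR4, against 7.58% of all genes with a call. It calls 4 of 196 without, NCA3, TIR4, FIT2 and FIT3, against 4.52%.

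**Figure D4:**
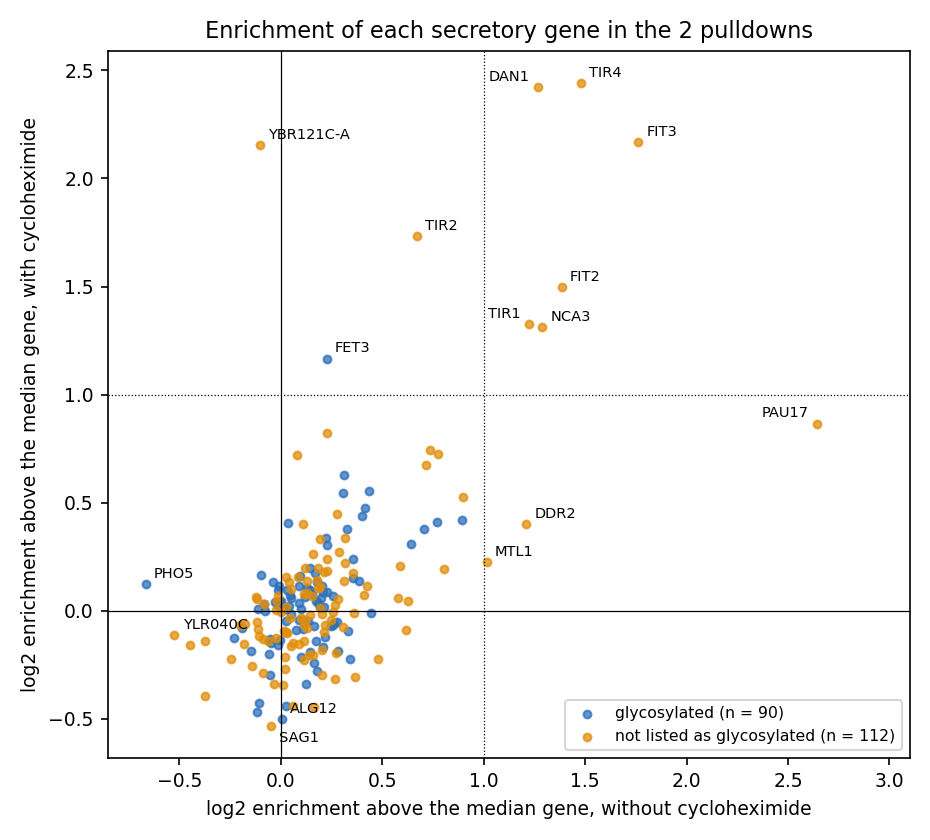
Log2 enrichment relative to the median gene with cycloheximide (y axis) against that without it (x axis) for the 202 secretory genes measured in both, coloured by the authors' glycosylation annotation, with 2-fold marked by dotted lines. TIR4, DAN1, FIT3, FIT2, TIR1 and NCA3 lie past 2-fold in both directions of the plot, YBR121C-A, TIR2 and FET3 only with the drug, and PAU17, DDR2 and MTL1 only without it.

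The change between conditions was next taken per gene, as enrichment with minus enrichment without cycloheximide, centred on the median difference of all genes with enough reads in both pairs. The median secretory gene stood at -0.13, with 54 of 202 above 0, whereas other genes without mitochondrial annotation stood at -0.04 and mitochondrial genes at 0.45. On library totals the secretory median was -0.79, and 1 member was at least 2-fold higher and 51 lower, so the split depends on the scaling. At least 2-fold higher were 3 members (1.49%), against 9.57% of all genes measured: YBR121C-A at 2.21 (2.05 to 2.38), DAN1 at 1.11 (0.81 to 1.42) and TIR2 at 1.02 (0.66 to 1.38). At least 2-fold lower was 1, PAU17 at -1.82 (-2.66 to -0.97), against 0.622%. PAU17 met the read minimum without the drug only through the pulldown in which it was high. TIR4 at 0.92 and FET3 at 0.90 came next on the higher side, and DDR2 at -0.85 and MTL1 at -0.83 on the lower. For 4 of these, YBR121C-A, FET3, DDR2 and MTL1, the inputs of the 2 conditions also differed by over 2-fold, and the same inputs enter the difference, so the 2 values are not independent. GRS1, named above beside YBR121C-A, stood at 1.37 in the difference.

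The inputs alone, with over without cycloheximide, measure footprint levels in all ribosomes, in which message amount and translation cannot be told apart. This ratio uses the same 2 inputs as the enrichments above. Relative to the median gene, which stood at 0.74 on library totals, the median of 217 secretory genes was -0.08. At least 2-fold higher were 22 members (10.1%), against 10.6% of all genes measured, and 16 were at least 2-fold lower (7.37%), against 10.4%. Both shares lie near or under the background. On library totals 62 were higher and 4 lower, so the split depends on the scaling.

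The lower end of the input ratio held mostly well-known genes, and YBR121C-A, the third lowest at -2.01, beside GRS1 at -1.34. FET3 stood at -2.33 (-2.38 to -2.29), on 245 RPM with and 740 without cycloheximide, and FRE1, a ferric reductase, at -1.82, while FIT3 stood at -1.36. PLB2, a phospholipase B, stood at -1.69 and PHO3 at -1.52. Of the ER chaperones, PDI1 at -1.38, ERO1, the oxidase that recharges it, at -1.23 and LHS1, an Hsp70-related chaperone, at -1.22 were at least 2-fold lower, and the list median was -0.48 relative to the median gene but 0.26 on library totals. SDA1, known for a role in ribosome assembly, stood at -2.03. The secretory genes named here were lower with than without the drug on library totals too, from FET3 at -1.59 to LHS1 at -0.48.

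The upper end held mostly short or sparsely read frames. YBL008W-A stood at 4.39 (2.82 to 7.77) on 108 reads with and 2 without cycloheximide, YKL162C-A at 3.51 on 105 and 4, and YML084W at 2.84 on 229 and 15. SPS100, a spore wall protein, had 103 reads with and 6 without, at 2.95. Each of these genes met the read minimum only through the input in which it was high. Among the well-read genes, HOR7, a small stress-responsive protein, stood at 1.33, DDR2 at 1.72 and the sensor MTL1 at 1.40.

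**Figure D5:**
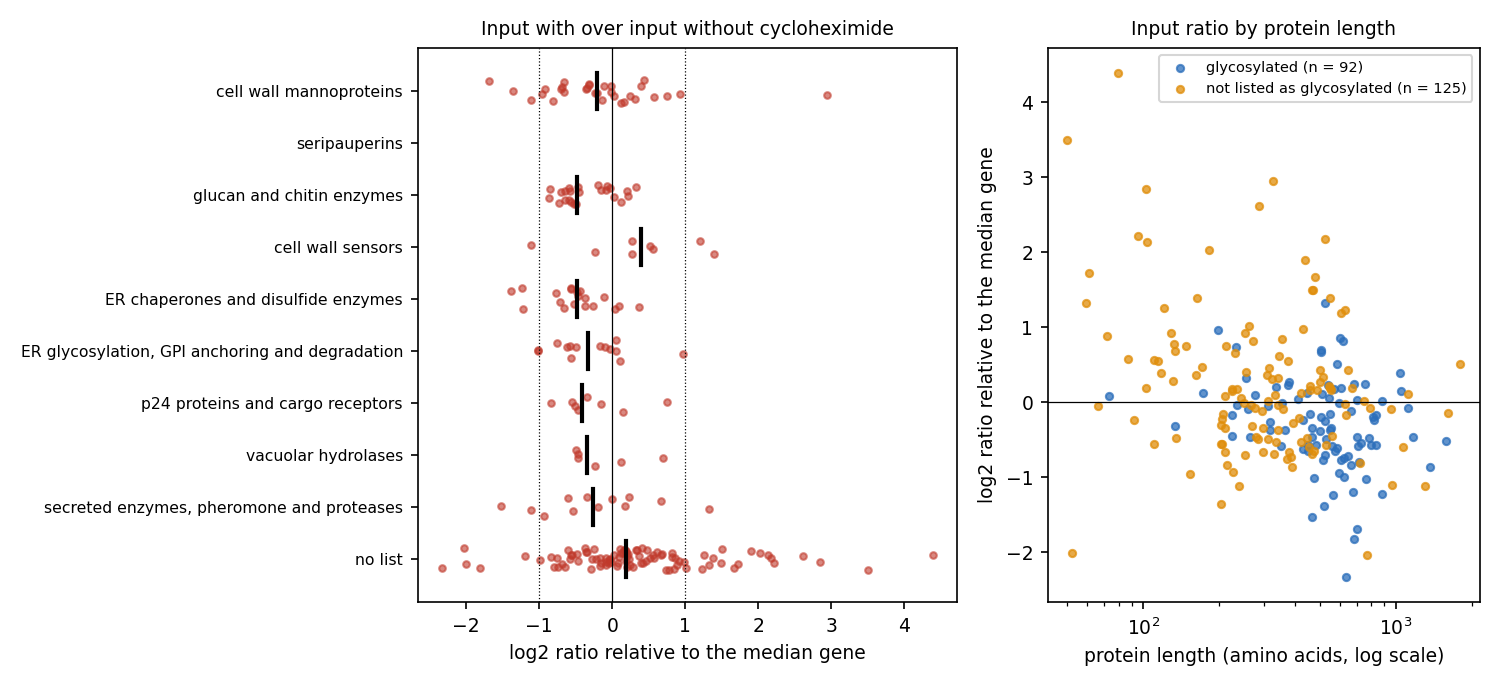
Log2 ratio of the input with cycloheximide over the input without it, relative to the median gene (1 library each): on the left by list (each point 1 gene, bars list medians, dotted lines 2-fold; no seripauperin was measured), on the right against protein length in amino acids (log scale), coloured by glycosylation annotation. Long glycosylated genes lie mostly below 0 (59 genes, median -0.46), and points above 2 are short or thinly read genes not listed as glycosylated.

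Medians by glycosylation lay apart in the input ratio and close together in the enrichments. With cycloheximide glycosylated genes had a median enrichment of 0.03 and the others 0.03, and without it 0.14 and 0.15. Among the 15 genes at least 2-fold higher in either pulldown, FET3 was the 1 listed as glycosylated. In the input ratio the 92 glycosylated genes had a median of -0.33, with 1 at least 2-fold higher (1.09%) and 10 lower (10.9%), whereas the other 125 had a median of 0.12, with 21 higher (16.8%) and 6 lower (4.8%). Against 10.6% higher and 10.4% lower over all genes measured, the lower share of glycosylated members was at the background. The higher share of the others includes thinly read genes, such as YBL008W-A and SPS100, that met the minimum through the input in which they were high. On library totals the medians were 0.41 and 0.86, both above 0. Glycosylated members were longer, with a median of 545 amino acids against 313. From 500 amino acids up the medians were -0.46 for 59 glycosylated and 0.11 for 27 other genes, and from 200 to 499 they were -0.24 for 29 and -0.08 for 69. The annotation does not say which kind of sugar was counted, and the Tir and Fit wall proteins, known as mannoproteins, are listed as not glycosylated.

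Length and the input ratio also moved together. Members under 200 amino acids had a median ratio of 0.58 and 10 of 33 were at least 2-fold higher, against -0.13 from 200 to 499 and -0.19 from 500 up, where 11 of 86 were at least 2-fold lower. Among other genes without mitochondrial annotation the medians over the same lengths were 0.21, 0.06 and -0.16, with 20.7% of those under 200 amino acids at least 2-fold higher and 12.6% of those from 500 up lower. The members' share was 30.3% for the short and 12.8% for the long, so the count of long members lay at that of other long genes. The short share includes YBL008W-A, which met the minimum only through the input in which it was high. Across the 217 members Spearman's rho of length with the ratio was -0.31, and it was -0.20 across 4071 other genes without mitochondrial annotation. Genes are not independent replicates, and all points come from the same 2 libraries. Length had little to do with enrichment, with rho of -0.10 over 231 members with cycloheximide and -0.12 over 202 without. MitoProt, a score for mitochondrial targeting peptides, had a rho of -0.03 with enrichment over the 231 members with the drug and of -0.21 over 202 without, whereas over mitochondrial genes it was 0.58 (1098 genes) with and 0.43 (1072 genes) without. The 36 members with a score of at least 0.5 had a median enrichment of 0.00 with cycloheximide, and the other 195 one of 0.04. Without the drug the medians were 0.05 over 30 members with such a score and 0.15 over the other 172.

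Duplicate genes from the ancient genome duplication gave 21 pairs in which both copies were members. The median absolute difference between copies was 0.23 over 21 pairs measured with cycloheximide and 0.15 over 16 without. SCW4 at 0.18 and SCW10 at 0.26 with the drug were a close pair. TIR2 and TIR3 differed with the drug, at 1.73 and 0.75, and less without it, at 0.67 and 0.73. MTL1 and MID2 differed without the drug, at 1.01 and 0.19, and so did DDR2 and HOR7, at 1.21 and 0.13. PRY1 and PRY2, sterol-binding wall proteins, differed in both conditions, at 0.73 and 0.27 with and 0.77 and 0.28 without.

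Neighbouring sets were compared with the members to show where these stand. Against the members' medians of 0.03 with cycloheximide and 0.14 without, the 127 genes with a GFP localization in the ER but no predicted signal sequence and no mitochondrial annotation stood at -0.14 with and, over 126, at 0.04 without. While 12 of the 231 members were at least 2-fold higher with the drug, 5 of the 28 genes with both a predicted signal sequence and a mitochondrial annotation were, with a median of 0.12. Of 24 genes of the signal recognition particle, the translocon and signal peptidase, 0 were 2-fold higher or lower in either pulldown, with a median of -0.05 with cycloheximide, from SRP72 at -0.50 to GET3, the targeting factor for tail-anchored proteins, at 0.81. Of 27 vesicle coat and tether genes 2 were higher with the drug, SEC18 at 1.12 and SEC17 at 1.10, both of the membrane fusion machinery. Plasma membrane transporters without a signal sequence, 36 genes, had a median of -0.28 with cycloheximide and 0 were 2-fold higher. With the drug 12.5% of all genes measured and 4.38% of other genes without mitochondrial annotation were higher. In these 3 small lists of pathway genes, counts of 0 or 2 lie near the latter share.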

How the data were processed

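Ribosome footprints were sequenced in 4 libraries, 1 per group, grouped by the sample titles. For each gene the authors deposited raw counts, RPKM (reads scaled by gene length and sequencing depth) and a log2 enrichment of pulldown over input RPKM, per the file headers. It also gives the authors' enrichment calls, annotation, protein length in amino acids and, per the file headers, a MitoProt score. Per the submitters' processing notes, CASAVA and genome build sacCer3 were used. The sources used here do not name the aligner or a filter on read length, nor how multiply mapping reads were treated. The table's 5 columns for another fusion protein were not used.

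Counts were scaled to the nuclear-gene total of each library after adding 0.5 reads, turned into log2 ratios and centred on the median of all nuclear genes with at least 100 reads over the 2 libraries compared (for the difference, in each of the 2 pairs). The comparisons were pulldown over input with cycloheximide, the same without, their difference, and the input with over the input without. Genes were counted from 2-fold. Clopper-Pearson 95% intervals (exact) go with ratios and normal ones with the difference, for counting error only. With 1 library per group there was no test across genes. Members, the 9 lists of members and the 3 lists of other pathway genes were chosen with earlier results of these data known, and 129 members stood on a list.

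Genes were named where they were among the 10 highest or lowest members of a comparison, at least 2-fold higher or lower in a pulldown, at the ends or the middle of a list, or on a short fixed list (KAR2, PDI1, GAS1, PRC1, PEP4, SUC2, PHO5, HSP150, CCW12, CWP2, OST1, EMP24 and TIR1). Members in a GFP category that goes against secretion, the partners of named duplicate genes, SEC17 and other named genes outside this rule were chosen after their values were seen. Of the members, 227 were found in the reference gene table (build R64), which gave coordinates, and 5 of them overlap another gene (DIA3, GRX6, MID2, SPS100 and YIL059C). No member had the same 4 counts as another gene.

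Alternatives were library totals, edgeR TMM factors, centring on non-mitochondrial genes, a pseudocount of 1, minimums of 20, 500 or 1 read, folds of 1.5 and 4, and the authors' deposited values. A minimum of 100 input reads and members overlapping no other gene were added after the data were seen. The procedure was tested on simulated counts. Computation ran in Python 3.11.15 (matplotlib 3.10.9, pandas 2.3.3, numpy 2.4.6, scipy 1.17.1) and in R 4.3.3 (edgeR 4.0.16).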

Additional observations from a re-analysis of the deposited data

Results flagged for a closer look

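On the scale relative to the median gene, 26 of the 202 members measured in both conditions (12.9%) stood on opposite sides of the median gene with and without cycloheximide, each with a counting interval that leaves out the median gene. Over all nuclear genes these were 466 of 5141 (9.06%). In 23 members the enrichment was below the median gene with the drug and above it without (11.4%, against 3.73% of all genes), and in 3 it ran the other way. These shares are not like for like. All genes include mitochondrial genes, 74.7% of which lay above the median gene with the drug. The members' intervals were also narrower, with a median half-width of 0.11 without the drug against 0.15 over all genes. The share over other genes without mitochondrial annotation was not computed. The difference between the conditions was not tested, since each group held 1 library, and values are enrichment with minus without cycloheximide.

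Among the wall mannoproteins the difference was -0.71 for AGA1, -0.62 for DSE2, -0.50 for EGT2, -0.39 for PLB3, -0.37 for CCW12, -0.36 for PST1 and -0.33 for CWP2. The sensor HKR1 stood at -0.74 and SLG1, also known as WSC1, at -0.47. Among the glucan and chitin enzymes DSE4 stood at -0.51, ROT1 at -0.38, SCW11 at -0.36, CTS1 at -0.30 and GAS5 at -0.28. DSE2, DSE4, EGT2, SCW11 and CTS1 are known as genes of daughter cell separation.

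TUL1, a Golgi ubiquitin ligase, stood at -0.61, PGA1, of GPI anchor synthesis, at -0.51, KSH1 at -0.51, YNL190W at -0.43 and PTM1 at -0.42. The vacuolar YBR139W stood at -0.36, YCR061W at -0.33, HOR7 at -0.25 and ECM14 at -0.24. The other 3 were RPP2B at 0.13, EMP47, a cargo receptor, at 0.14 and PHO3 at 0.22.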

How the results depend on the processing

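On library totals, without centring, 6 members were at least 2-fold higher and 21 lower in the pulldown with cycloheximide (median -0.70; all genes 9.13% higher and 16.1% lower), 1 was higher and 51 lower in the difference (median -0.79; all genes 4.55% and 13.5%), and 62 were higher and 4 lower between the inputs (median 0.66; all genes 34.9% and 2.14%). From 20 reads, 18 members were higher with the drug, which is 1.5 times the 12 (all genes 12.2%), and 1 was lower (0.537%). At that minimum 18 were higher without the drug (6.98%), 6 were lower in the difference (1.51%) and 35 higher between the inputs (13.1%). From 500 reads, 5 were higher without the drug (all genes 6.48%), 2 were higher and 0 lower in the difference (10.3% and 0.0469%), 11 were higher between the inputs (7.99%), and the median input ratio of glycosylated minus other members was -0.34, against -0.45. From 1 read, 36 were higher and 20 lower with the drug (all genes 13.2% and 3.40%), 35 and 20 without it (8.18% and 4.28%), 23 and 23 in the difference (11.7% and 3.26%) and 60 and 29 between the inputs (16.4% and 11.8%), where glycosylated minus other members was -0.76. At 1.5-fold the higher and lower counts were 21 and 1 with the drug (all genes 15.8% and 2.27%), 22 and 1 without (10.4% and 1.01%), 7 and 11 in the difference (14.01% and 3.91%) and 40 and 47 between the inputs (20.9% and 21.9%). At 4-fold 4 members were higher with the drug (all genes 8.29%), 1 without (1.48%), 1 higher and 0 lower in the difference (2.78% and 0%), and 9 higher and 3 lower between the inputs (3.31% and 1.08%). With at least 100 input reads, 9 of 215 members were higher with the drug and 8 of 196 without.

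The other 122 values of these results stayed within 1.5 times (counts) or moved by less than the median half-width of the members' counting intervals (medians). Of 553 values of single genes under the alternatives, 70 moved by more than the half-width of the gene's own counting interval, which is narrow for well-read genes, and 0 reversed. No paired analysis was possible because each group held 1 library and the labels give no replicate numbers. Leaving out a library was not possible for the same reason, and the alternative split by N-glycosylation sites in protein sequences was not run. The cause of these shifts was not tested, except that a lower minimum admits thinly read genes and a changed fold counts other sizes. Depth limits 28 members with under 200 reads in every library, among them PAU17, PAU5, FIT1, DAN4 and PHO5.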

Other observations

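Several members are known for a role in iron use, and their ratios of the input with over the input without cycloheximide are given as values of single genes, picked after they were seen. Relative to the median gene, FET3 stood at -2.33, FRE1, a ferric reductase of the plasma membrane, at -1.82, FIT3 at -1.36, FET5, a ferroxidase of the vacuolar membrane, at -0.995 and FIT2 at -0.96. FRE6, a ferric reductase of the vacuole, stood at -0.58 and FRE4 at -0.80. On library totals FET3 stood at -1.59, FRE1 at -1.08, FIT3 at -0.62, FET5 at -0.26, FIT2 at -0.22 and FRE4 at -0.06, while FRE6 turned to 0.16, so the direction of FRE6 depends on the scaling. FRE4 rested on 56 reads in the input with the drug, and at -0.06 it gives no direction on that scale. FET5 had 1929 reads in the input with the drug and 1862 without. In the pulldowns FIT2 and FIT3 were at least 2-fold higher in both conditions, FET3 with cycloheximide only, and FET5 stood at 0.63 with and 0.31 without.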
